A study of Mus musculus with 12 samples.

Results

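The variable (V) segments of the T cell receptor α chain, named TRAV genes, were followed in T cells from the pancreatic islets of NOD mice, to see whether regulatory T cells (Treg) and expanded clones used other segments than their counterparts. The genes were those named in the productive TRA contigs, the assembled α chain transcripts of the receptor libraries. They were all TRAV genes other than TRAV5 and TRAV5D, which made 69 of the 72 TRAV genes read, and 63 to 66 of the 69 were read in each library. The mice were female NOD animals, a strain that develops autoimmune diabetes spontaneously, at 12 weeks of age and before diabetes. Live TCRβ+ cells were sorted from the islets and processed by CITE-seq, which reads the mRNA of single cells together with surface antibodies. The antibody features were CD4, CD62L, CD11a and 1 named only PE in the counts. In 1 more library the receptor was read. There were 4 biological replicates and no other strain, age or treatment, so every comparison was made between cells of the same library. Whether a replicate was 1 mouse or pooled mice is not stated, so p-values speak only for these 4 samples. Those of the permutation tests measure the spread between them, and those of edgeR also hold the counting error of small clonotype counts.

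A T cell receptor α chain is built by joining 1 of many V segments to 1 of many J segments (TRAJ). The V segment encodes the first pair of loops that contact the peptide-MHC complex, and the V-J junction encodes the third loop, CDR3, whose sequence differs between most clones. An uneven use of V segments can accompany recognition of a shared antigen, and some unconventional cells carry a fixed pair, as invariant NKT cells carry TRAV11 with TRAJ18. TRAV segments form families, and in mice a large part of the locus is repeated, so many genes have near-identical copies marked D or N.

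Treg were cells with a CD4 antibody count of at least 40, no Cd8a or Cd8b1 UMI and at least 1 UMI of Foxp3, the transcription factor that defines the lineage. CD4 conventional cells met the same CD4 gate and had no Foxp3 UMI. CD8 cells had a CD4 antibody count under 20 and at least 2 UMIs of Cd8a and Cd8b1. A clonotype was a library's set of cells with the same TRB and the same 1 or 2 TRA CDR3 nucleotide sequences. It counted as expanded with at least 2 cells in its population and as single with 1 cell. Each clonotype counted once for each TRAV gene it held, here called a TRAV assignment, so a large clone weighed no more than a small one.

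The 4 libraries held 4136 to 8718 barcodes, of which 3819 to 8031 passed the cell filter and 2531 to 3734 of those had a paired receptor. They gave 928 Treg, 8237 CD4 conventional and 2909 CD8 cells with a paired receptor. Of the Treg, 83.0% ± 1.4 (SD, n = 4 libraries) had a UMI of Ikzf2 and 39.5% ± 2.2 one of Il2ra, both known Treg genes, against 25.5% ± 4.8 and 5.85% ± 1.02 of the CD4 conventional cells. A Foxp3 UMI was present in 0.87% ± 0.28 of CD8 cells, which marks the background of the gate. Libraries shared 36 to 102 barcodes, none with the same receptor, and 3 of 10050 clonotypes occurred in more than 1 library. The TRAV calls were set beside the mRNA of the same cells: a UMI of the same gene was found in 98.8% of cells with a TRAV16N contig and in 1.69% of other cells. For genes with close copies the exact copy was uncertain: the share was 29.2% for TRAV13-4-DV7, 27.0% for TRAV9N-4 and 3.16% for TRAV12D-2, and 94.2%, 63.1% and 19.5% when any copy counted. It was 3.18% for TRAV6N-7 and 0% for TRAV7D-5, and 69.4% and 83.2% when any copy counted. The names of such genes below are those of the contig calls.

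Sequences are shown first for 2 genes whose expanded clones are described below, so that the junctions of different libraries can be compared. The CDR3s of expanded TRAV13-4-DV7 clones of CD4 conventional cells were read from the contigs. All were picked from the clones paired with the β segment TRBV15: the largest TRAJ39 clone of each library and 4 TRAJ49 clones. The sequences are written 5′ to 3′. Capitals mark the bases that match neither the usual start of that TRAV gene nor the usual end of that TRAJ segment in these libraries.
TRAV13-4-DV7 TRAJ39, replicate 1, 65 cells: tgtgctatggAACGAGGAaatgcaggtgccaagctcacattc
TRAV13-4-DV7 TRAJ39, replicate 2, 15 cells: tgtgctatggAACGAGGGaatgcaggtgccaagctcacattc
TRAV13-4-DV7 TRAJ39, replicate 3, 9 cells: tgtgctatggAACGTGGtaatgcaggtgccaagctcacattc
TRAV13-4-DV7 TRAJ39, replicate 4, 4 cells: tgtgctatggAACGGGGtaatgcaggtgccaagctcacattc
TRAV13-4-DV7 TRAJ49, replicate 2, 28 cells: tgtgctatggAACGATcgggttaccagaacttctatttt
TRAV13-4-DV7 TRAJ49, replicate 4, 23 cells: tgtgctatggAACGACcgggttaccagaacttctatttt
TRAV13-4-DV7 TRAJ49, replicate 2, 3 cells: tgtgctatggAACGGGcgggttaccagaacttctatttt
TRAV13-4-DV7 TRAJ49, replicate 3, 2 cells: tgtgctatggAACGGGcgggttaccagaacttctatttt
The 4 TRAJ39 sequences, 1 from each library, differed at bases 15 and 18 counted from the first base of the CDR3 (A18G between replicates 1 and 2, A15T and A18T between replicates 1 and 3, T15G between replicates 3 and 4) and encoded the same amino acids. The TRAJ49 sequences of the 28-cell and 23-cell clones differed by T16C, which changed an amino acid, and those of the 3-cell and 2-cell clones were the same. That all of these clones carried TRBV15 follows from how they were picked.

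In CD8 cells TRAV16N was the TRAV gene with the highest share, and its largest clone in each library is shown.
TRAV16N TRAJ37, replicate 1, 36 cells: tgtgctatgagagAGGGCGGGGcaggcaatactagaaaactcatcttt
TRAV16N TRAJ45, replicate 2, 25 cells: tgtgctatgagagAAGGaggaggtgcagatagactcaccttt
TRAV16N TRAJ42, replicate 3, 29 cells: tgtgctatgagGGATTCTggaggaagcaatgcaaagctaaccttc
TRAV16N TRAJ37, replicate 4, 66 cells: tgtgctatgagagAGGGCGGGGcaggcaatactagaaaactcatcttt
The TRAJ37 sequence was the same to the base in replicates 1 and 4, in clones of 36 and 66 cells, both with TRBV3.

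Treg and CD4 conventional cells used the TRAV genes at similar shares, and no single gene differed past the threshold. The question was whether the islet Treg repertoire leans on other α chain segments than the conventional one. It rested on 722 Treg clonotypes with 827 TRAV assignments and 6424 CD4 conventional clonotypes with 7065. edgeR's quasi-likelihood test, with the library as block and Benjamini-Hochberg adjustment, called 0 of 60 TRAV genes tested (0%), and 0 of the 57 genes described here. At an unadjusted p under 0.05 there were 2 of these 57 and 2 of all 60 (3.33%), and DESeq2 also called 0. The median log2 ratio of Treg over CD4 conventional was −0.14 both for these 57 genes and for all 60.

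Commonly used genes had intervals of the ratio that held 0. TRAV6N-7, the most used of the genes described here, made 6.45% ± 1.56 of Treg assignments and 6.97% ± 0.66 of CD4 conventional ones (SD, n = 4 libraries), a log2 ratio of −0.10 with a 95% interval of −0.53 to 0.34. TRAV9-1 made 3.55% ± 0.88 in Treg and 4.58% ± 0.57 in CD4 conventional cells (interval −0.94 to 0.25). TRAV13-1 made 4.58% ± 1.03 in Treg and 3.86% ± 0.38 in CD4 conventional cells (interval −0.35 to 0.83). The widths of these intervals give the size of difference that 827 Treg assignments could not show for the commonest genes.

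**Figure D1:**
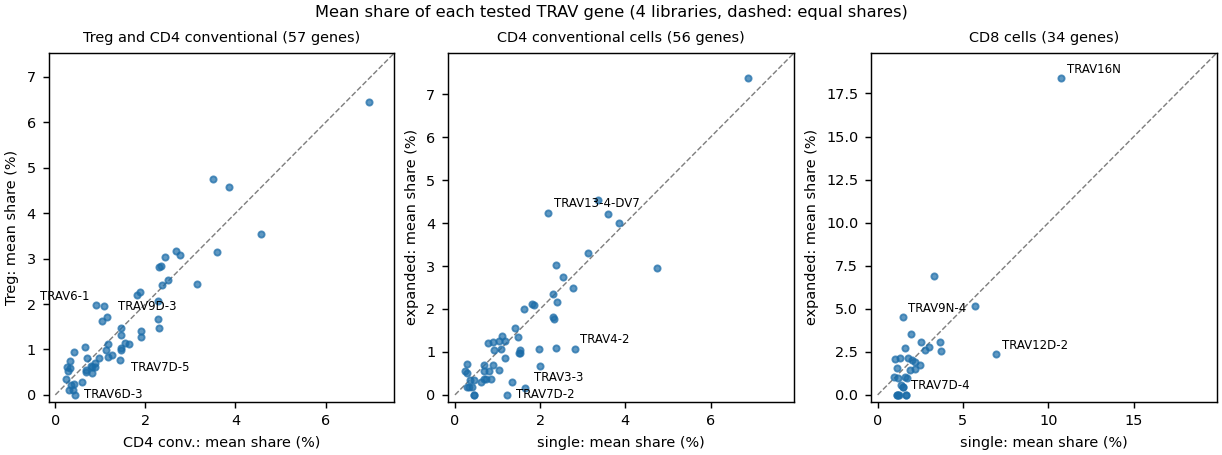
Mean share of each tested TRAV gene over 4 libraries, in % of TRAV assignments, with Treg, expanded CD4 conventional or expanded CD8 clonotypes on the vertical axis and CD4 conventional or single clonotypes on the horizontal axis. The dashed line marks equal shares, the 4 genes with the smallest p in each comparison are named, and TRAV16N stands highest in CD8 cells at 18.4% of expanded and 10.8% of single assignments.

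The gene with the smallest p between Treg and CD4 conventional cells was TRAV6-1. It made 1.5%, 2.5%, 2.37% and 1.55% of Treg assignments in replicates 1 to 4, against 0.869%, 1.07%, 1.2% and 0.515% of CD4 conventional ones. It was higher in Treg in 4 of 4 libraries and the groups did not overlap, but the difference missed the threshold (log2 ratio 1.13 ± 0.46 SE, adjusted p = 0.818, edgeR), with 16 Treg clonotypes. These were spread over receptors: no TRAJ segment was held by more than 2 of the 16, and TRBV1, the commonest β segment, by 4. TRAV9D-3 made 2.5%, 2%, 1.78% and 1.55% in Treg, against 0.917%, 1.23%, 1.2% and 0.979% in CD4 conventional cells. It too was higher in 4 of 4 libraries without overlap and missed the threshold (log2 ratio 0.85 ± 0.43, adjusted p = 0.818). Most genes and families described for a difference, here and below, were picked by a small p in the same fit. A lack of overlap is therefore no further support for them. How many of all tested genes separated in this way was not counted.

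Other genes were lower in Treg or at 0. TRAV6D-3 was read in 0 of 827 Treg assignments and in 32 of 7065 CD4 conventional ones, which is at least 1.25-fold lower in Treg when the count of 0 is set to the 3 counts that it allows over the group. TRAV7D-5 made 0 to 1.5% of Treg assignments and 1.30% to 1.56% of CD4 conventional ones, lower in Treg in 4 of 4 libraries (log2 ratio −0.97 ± 0.56, adjusted p = 0.818). The TRAV7 family as a whole, 1 of the largest families, made 13.1%, 8.04%, 9.52% and 7.06% of Treg assignments, against 11.4%, 13.1%, 13.6% and 11.2% of CD4 conventional ones. It was lower in Treg in 3 of 4 libraries and higher in replicate 1, and missed the threshold (log2 ratio −0.39 ± 0.16, adjusted p = 0.353, 0 of 19 families called, 0%). Without replicate 1 the family's log2 ratio was −0.63 with an adjusted p of 0.0297, and with TMM scaling it was −0.54 with 0.0229. Over all alternatives the adjusted p ranged from 0.0229 to 0.973.

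TRAV16N, the gene that stood out in CD8 cells, made 4.50%, 5.00%, 2.96% and 6.59% of Treg assignments, against 3.14%, 3.29%, 3.59% and 3.97% of CD4 conventional ones. It was higher in Treg in 3 of 4 libraries and lower in replicate 3, and did not pass (log2 ratio 0.47 ± 0.30, adjusted p = 0.818). None of the 42 TRAV16N chains of Treg was joined to TRAJ42, against 15 of 248 in CD4 conventional cells. Segments of unconventional cells were rare in both: TRAV11 was read in 4 of 827 Treg and 55 of 7065 CD4 conventional assignments (interval of the log2 ratio −2.49 to 1.04), and TRAV1, which MAIT cells use, in 8 Treg and 48 CD4 conventional assignments (−0.95 to 2.09). TRAV11 with TRAJ18 accounted for 46 CD4 conventional cells, each of them a clonotype of its own, and 50% of these had a UMI of Zbtb16, the transcription factor of innate-like T cells, against 0.364% of all CD4 conventional cells. TRAV1 with TRAJ33, the pair counted as MAIT, accounted for 2 CD4 conventional cells and 0 Treg. Of the 2 cells, 0% had a Zbtb16 UMI, so most TRAV1 assignments lacked the MAIT pair.

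Depth moved with the Treg gate. Median UMI counts were 4288 to 6379 in Treg and 3346 to 4236 in CD4 conventional cells, and the part of this difference in the TRAV shares was not tested.

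**Figure D2:**
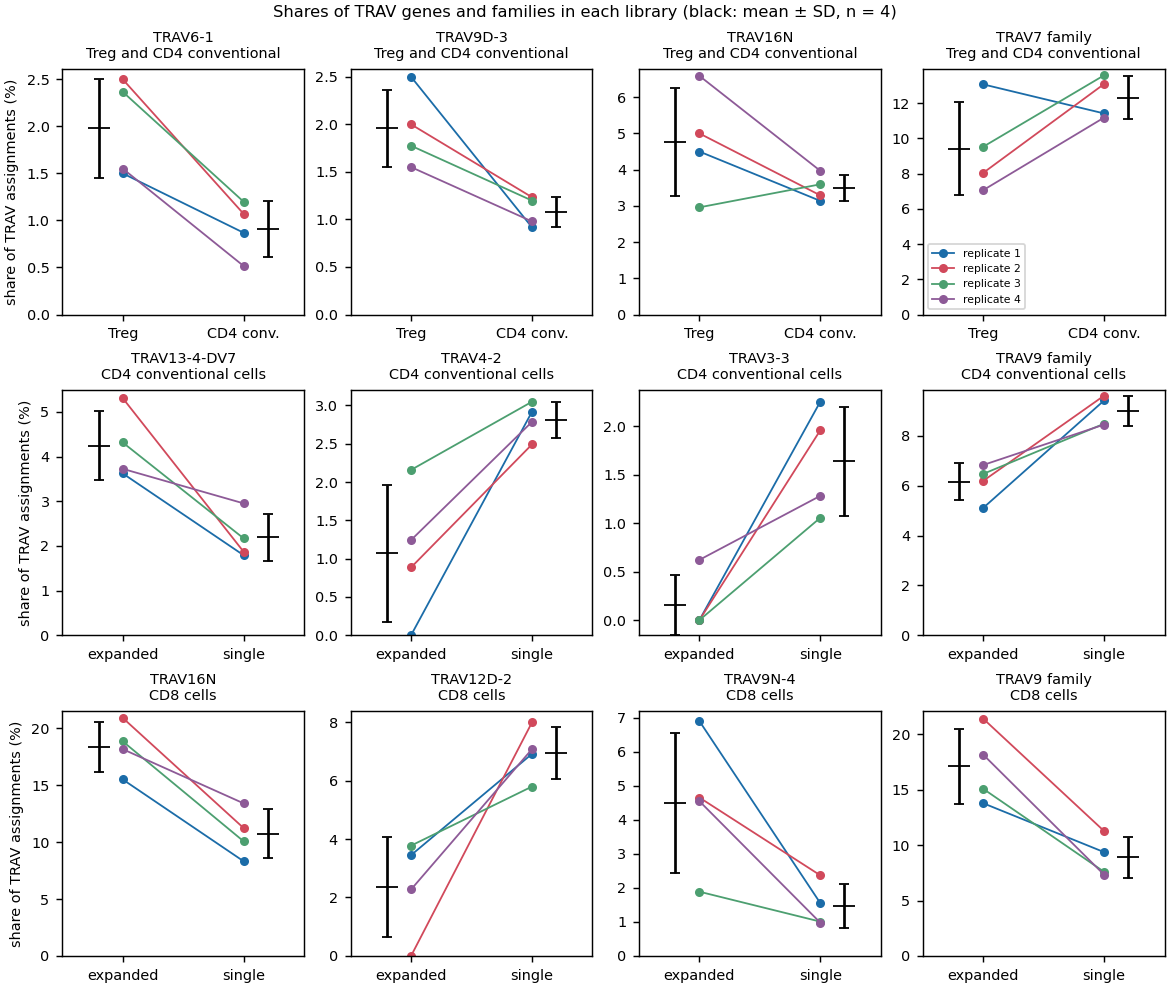
Share of TRAV assignments (%) of 12 genes or families in each of the 4 libraries, with lines joining the populations of a library and black marks for the mean ± SD. Expanded CD8 clonotypes held 15.5% to 20.9% TRAV16N, above all 4 shares of single clonotypes, and expanded CD4 conventional clonotypes held 3.62% to 5.31% TRAV13-4-DV7, above the single ones.

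In CD4 conventional cells, expanded clonotypes held more TRAV13-4-DV7 and less of several other genes than single clonotypes, yet none of the genes described here passed. The comparison asks whether clonotypes seen in at least 2 islet cells used other segments than clonotypes seen once. It rested on 510 expanded clonotypes with 551 assignments and 5974 single ones with 6579. edgeR called 1 of 59 genes tested (1.69%), TRAV5D-4, which is not among the genes described here, and 0 of the other 56. Of these 56, 8 had an unadjusted p under 0.05, against 10 of all 59 (16.9%), and DESeq2 called 0 genes. Their median log2 ratio of expanded over single was −0.22, against −0.11 over all 59.

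TRAV13-4-DV7 made 3.62%, 5.31%, 4.32% and 3.73% of expanded assignments in replicates 1 to 4, against 1.79%, 1.87%, 2.17% and 2.95% of single ones. All 4 expanded values lay above all 4 single values, and the difference missed the threshold (log2 ratio 0.90 ± 0.36, 95% interval 0.20 to 1.61, adjusted p = 0.158, edgeR). Of the 169 TRAV13-4-DV7 assignments, 13.6% belonged to an expanded clonotype (Wilson 95% interval 9.24% to 19.6%, counting error only), against 7.73% (7.13% to 8.37%) of all assignments. The share was 2.22% among clonotypes of 1 cell, 3.68% at 2 cells, 4.32% at 3 to 4 cells and 5.31% at 5 or more cells, with 6 of 113 in the last class. All 6 were TRBV15 clonotypes, and those of 9 and 6 cells in replicate 3 held the same TRA sequence. The size classes were set after earlier results were known and were not tested.

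A single β segment made a large part of the partners of expanded TRAV13-4-DV7 chains. TRBV15 paired with 10 of 23 expanded chains (43.5%) and 13 of 147 single ones (8.84%), where TRBV15 over all TRAV genes paired with 12.9% of expanded and 6.15% of single chains. The receptor of TRAV13-4-DV7, TRAJ39 and TRBV15 made 5 expanded clonotypes with 99 cells, present in all 4 libraries, and 2 single ones, both in replicate 2. The 5 expanded clonotypes had the 4 TRA nucleotide sequences printed above and 1 amino acid sequence, with 4 distinct TRB CDR3s, of 33, 33, 33 and 39 bases. The 2 of replicate 3, of 9 and 6 cells, shared both that TRA and the TRB and counted as separate clonotypes.

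Recurrence between libraries was counted for every receptor. Among 425 distinct combinations of TRAV, TRAJ, TRBV and TRA amino acid sequence in expanded CD4 conventional clonotypes, 8 occurred in at least 2 libraries and 1, this one, in more than 2. Among 5840 in single clonotypes, 38 occurred in at least 2 libraries and 4 in at least 3, all 4 of them TRAV11 with TRAJ18. With TRAJ49 in place of TRAJ39 there were 4 expanded clonotypes with 56 cells in replicates 2 to 4, and 3 single ones. Neither receptor was found in a Treg or CD8 clonotype, and these groupings were chosen after the values had been seen. A clonotype counted as Treg only where Treg were the larger part of its cells, so fewer Foxp3-positive cells in these clones would not show. Among 722 Treg clonotypes, receptors this rare could also be missed.

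With TRBV15 receptors left out of the count, TRAV13-4-DV7 made 2.17%, 2.65%, 2.16% and 2.48% of expanded assignments, against 1.69%, 1.51%, 2.11% and 2.62% of single ones. The values then overlapped, with means of 2.37% ± 0.24 in expanded and 1.98% ± 0.49 in single clonotypes. The totals, 551 expanded and 6579 single assignments, still held all TRBV15 receptors. The receptors to leave out were chosen after their high share in expanded clonotypes was seen, so the overlap is a description and not a test.

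Several genes were lower in expanded CD4 conventional clonotypes. TRAV4-2 made 0%, 0.885%, 2.16% and 1.24% of expanded assignments, against 2.92%, 2.49%, 3.05% and 2.79% of single ones, lower in 4 of 4 libraries without overlap (log2 ratio −1.37 ± 0.53, adjusted p = 0.158). TRAV3-3 was held by 1 expanded clonotype, in replicate 4, and by 107 single ones. It made 0.621% of expanded assignments there and 1.06% to 2.25% of single ones, and with this 1 clonotype its log2 ratio had an error of 1.28 (−3.05, adjusted p = 0.180). In CD8 cells 5 of 56 TRAV3-3 assignments were in expanded clonotypes, and the ratios of the lineages did not differ past the threshold (adjusted p = 0.671).

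TRAV7D-2 was held by 0 of 551 expanded and 79 of 6579 single assignments. That is at least 2.21-fold lower in expanded clonotypes, with the count of 0 set to 3 over the group (adjusted p = 0.158). TRAV8N-2 and TRAV4D-4 were also at 0 in expanded clonotypes, against 30 and 29 single assignments, which the 3 counts allowed cannot tell from equal shares. TRAV14D-1 (log2 ratio −1.11 ± 0.53) and TRAV14N-3 (−1.42 ± 0.69) were lower in 4 of 4 libraries without overlap and both had an adjusted p of 0.267. The most used gene, TRAV6N-7, made 7.37% ± 2.23 of expanded and 6.88% ± 0.75 of single assignments (interval of the log2 ratio −0.55 to 0.74).

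Among families, 1 of 18 was called (5.56%), TRAV5, and 0 of the 17 others. The TRAV9 family had the smallest p of these. It made 5.11%, 6.19%, 6.47% and 6.83% of expanded assignments, against 9.42%, 9.62%, 8.49% and 8.45% of single ones, lower in 4 of 4 libraries without overlap (log2 ratio −0.53 ± 0.23, adjusted p = 0.241). The TRAV7 family was at −0.46 ± 0.25 (adjusted p = 0.368), and without replicate 1 at −0.73 with an adjusted p of 0.0259, within a range of 0.0259 to 0.825 over the alternatives.

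**Figure D3:**
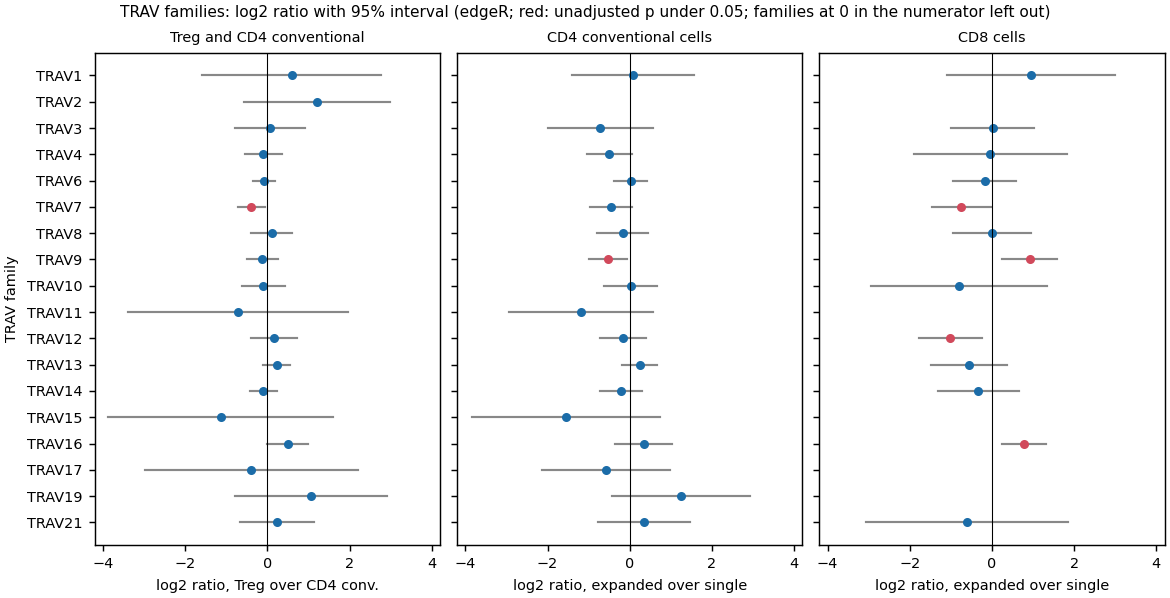
Log2 ratio of each TRAV family with its 95% interval from edgeR, for Treg over CD4 conventional cells and for expanded over single clonotypes of CD4 conventional and of CD8 cells. Red points had an unadjusted p under 0.05; the TRAV9 family lies at −0.53 in CD4 conventional and at 0.91 in CD8 cells.

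In CD8 cells, expanded clonotypes held more TRAV16N and TRAV9 family segments and less of the TRAV12 family than single clonotypes, but no gene and no family passed the threshold. There were 183 expanded clonotypes with 198 assignments and 1690 single ones with 1854, so only genes with at least 20 clonotypes could be tested, 35 in all. edgeR called 0 of 35 (0%) and 0 of the 34 described here. Of these, 5 had an unadjusted p under 0.05, as did 5 of all 35 (14.3%), and DESeq2 called 0. Their median log2 ratio was −0.26, against −0.22 over all 35.

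TRAV16N lies in the TRAJ-proximal part of the locus (mouse GRCm38, chr14:53351090-53351621, from RefSeq). α chains of TRAV16 and TRAJ42 are known from NOD islet CD8 cells that recognise a peptide of the islet enzyme IGRP. TRAV16N made 15.5%, 20.9%, 18.9% and 18.2% of expanded assignments, against 8.32%, 11.2%, 10.1% and 13.4% of single ones. All expanded values lay above all single values (log2 ratio 0.78 ± 0.27, 95% interval 0.24 to 1.32, unadjusted p = 0.00507, adjusted p = 0.177, edgeR). With expanded set at 3 or more cells the log2 ratio was 1.23 and the adjusted p 0.0183. Scaling set the size of the ratio: it was 0.19 with TMM scaling (adjusted p = 0.689) and 0.24 with DESeq2 (adjusted p = 0.905), where the median of all genes tested was −0.75 and −0.82 in place of −0.22. Over all alternatives the ratio stayed above 0 and the adjusted p ranged from 0.0152 to 0.905.

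The excess of TRAV16N was in the largest clones. It made 10.4% of assignments of single clonotypes, 12.1% at 2 cells and 12.2% at 3 to 4 cells, and 36.0% at 5 or more cells (18 of 50, Wilson 95% interval 24.1% to 49.9%). In that last class the share was 37.5%, 41.7%, 23.1% and 41.2% in the 4 libraries. Of the 18 large clonotypes, 9 were joined to TRAJ42, and the others were spread over TRAJ13, TRAJ26, TRAJ37, TRAJ45, TRAJ47 and TRAJ48. Over all sizes and libraries, the 11 expanded TRAV16N clonotypes with TRAJ42 held 5 distinct TRAV16N nucleotide sequences. Whether some of them were 1 clone split by an unread second chain was not tested. These classes were set after earlier results were known and were not tested.

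TRAJ42 was the partner of 11 of 36 expanded TRAV16N chains (30.6%) and 18 of 193 single ones (9.33%), where over all TRAV genes it was the partner of 7.07% of expanded and 3.60% of single chains. With TRAJ42 receptors left out, TRAV16N made 12.1%, 16.3%, 13.2% and 9.09% of expanded assignments, against 8.18%, 9.47%, 9.57% and 11.5% of single ones. The shares then overlapped, with means of 12.7% ± 3.0 in expanded and 9.67% ± 1.35 in single clonotypes, and replicate 4 was lower in expanded clonotypes. The totals, 198 expanded and 1854 single assignments, still held all TRAJ42 receptors. These too were chosen after their high share was seen, so the overlap is a description and not a test. TRAV16N with TRAJ42 and TRBV13-3 was the CD8 receptor that recurred most: of 170 combinations with 1 TRA amino acid sequence in expanded clonotypes, 3 occurred in at least 2 libraries, all with TRAV16N, and this one in 3, with 5 clonotypes and 108 cells.

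Non-productive TRA contigs, which carry a rearrangement that makes no receptor chain, were counted in the same cells. TRAV16N made 1 of 111 of these (0.901%) in cells of expanded CD8 clonotypes and 10 of 375 (2.67%) in single ones. In the productive chains it made 18.2% of the pooled assignments of expanded and 10.4% of single clonotypes. TRAV12D-2 made 7.21% of the non-productive contigs in expanded and 5.60% in single clonotypes.

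**Figure D4:**
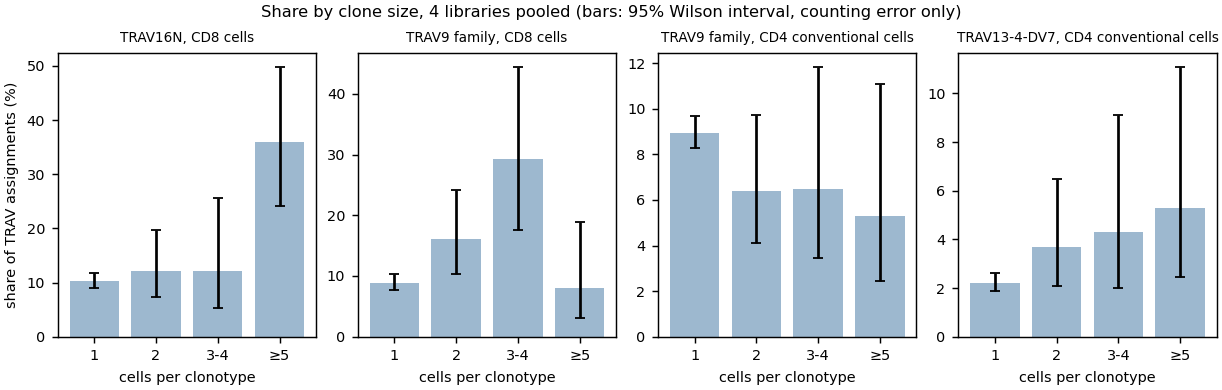
Share of TRAV assignments (%) by the number of cells of a clonotype, with the 4 libraries pooled and 95% Wilson intervals that cover counting error only. TRAV16N made 36.0% of CD8 clonotypes of 5 or more cells, and the TRAV9 family 29.3% of CD8 clonotypes of 3 to 4 cells and 8% of those of 5 or more.

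The TRAV9 family made 13.8%, 21.4%, 15.1% and 18.2% of expanded CD8 assignments, against 9.38%, 11.3%, 7.59% and 7.33% of single ones. It was higher in 4 of 4 libraries without overlap, and missed the threshold narrowly (log2 ratio 0.91 ± 0.33, adjusted p = 0.0526, 0 of 15 families called, 0%). The adjusted p ranged from 0.0200 to 0.741 over the alternatives. Its excess was in small clones: the share was 16.04% at 2 cells, 29.3% at 3 to 4 cells (12 of 41) and 8% at 5 or more (4 of 50), against 8.89% of single assignments. These clonotypes shared a TRAJ segment less often than the expanded TRAV16N clonotypes did. The 34 expanded TRAV9 chains held at most 4 with the same TRAJ segment and at most 5 with the same TRBV segment, and the 33 clonotypes had 32 distinct TRA amino acid sequences. The largest TRAV9 clone of each library is printed here, those of replicates 2 and 3 both with TRAJ49.
TRAV9-4 TRAJ26, replicate 1, 9 cells: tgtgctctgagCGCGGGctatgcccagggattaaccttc
TRAV9-1 TRAJ49, replicate 2, 13 cells: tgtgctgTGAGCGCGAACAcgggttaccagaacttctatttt
TRAV9D-3 TRAJ49, replicate 3, 15 cells: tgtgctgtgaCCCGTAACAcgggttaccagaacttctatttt
TRAV9N-4 TRAJ21, replicate 4, 9 cells: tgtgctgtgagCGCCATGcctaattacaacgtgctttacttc

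Within the family, TRAV9N-4 made 6.90%, 4.65%, 1.89% and 4.55% of expanded assignments, against 1.55%, 2.37%, 1.01% and 0.976% of single ones. It was higher in 4 of 4 libraries, but its lowest expanded value lay within the single ones (log2 ratio 1.64 ± 0.64, adjusted p = 0.206). TRAV9-1 made 1.72%, 11.6%, 7.55% and 6.82% in expanded clonotypes, against 3.24%, 3.55%, 2.52% and 3.90% in single ones, lower in replicate 1 and higher in the others (0.97 ± 0.54, adjusted p = 0.334, and 0.40 with TMM scaling).

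The TRAV12 and TRAV7 families had lower shares in expanded CD8 clonotypes, short of the threshold. The TRAV12 family made 5.78% ± 4.25 of expanded and 11.3% ± 1.5 of single assignments (log2 ratio −1.02 ± 0.38, adjusted p = 0.0526). Its share was 5.17%, 11.9%, 3.77% and 2.27% in expanded clonotypes, so replicate 2 stood near the 9.29% to 12.5% of single ones, and without replicate 2 the log2 ratio was −1.50 with an adjusted p of 0.0366, within a range of 0.0185 to 0.509 over the alternatives. Its most used gene, TRAV12D-2, made 3.45%, 0%, 3.77% and 2.27% in expanded clonotypes, against 6.91%, 7.99%, 5.79% and 7.07% in single ones (−1.43 ± 0.59, adjusted p = 0.206). The TRAV7 family made 8.62%, 4.76%, 5.66% and 9.09% of expanded assignments, against 12.2%, 9.20%, 12.4% and 13.7% of single ones. It was lower in 4 of 4 libraries, with expanded values below all single ones (log2 ratio −0.74 ± 0.36, adjusted p = 0.159, range 0.0416 to 0.511 over the alternatives). Its members differed: TRAV7D-5 was in 4 of 198 expanded and 24 of 1854 single assignments, a higher share in expanded clonotypes. TRAV7D-4 was in 0 of 198 expanded and 31 of 1854 single assignments, at least 1.10-fold lower in expanded ones, and TRAV13-4-DV7 in 0 expanded and 28 single assignments, for which no fold can be given.

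A γ chain transcript and surface CD62L, a homing receptor of naive and recirculating cells, differed along with clone size. A CD62L antibody count under 5 was found in 75.7% to 93.9% of cells of expanded CD8 clonotypes and 30.0% to 61.8% of single ones, and in 75.7% to 93.3% of cells of expanded CD4 conventional clonotypes and 26.9% to 59.1% of single ones. Among cells with such a low count, 0 genes were called in CD8 and the log2 ratio of TRAV16N kept its sign. Tcrg-C4, a constant segment of the γ chain, had a UMI in 31.7% ± 4.5 of cells of expanded and 2.74% ± 1.43 of single CD8 clonotypes, and Trdc, the δ chain constant segment, in 0.68% ± 1.17 of expanded and 1.07% ± 0.60 of single ones. The part of these values in the TRAV shares was not tested.

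The effect of expansion was compared between the lineages with an interaction term in edgeR, taking the log2 ratio of expanded over single in CD8 cells minus that in CD4 conventional cells. At the level of genes 0 of 60 were called (0%), and DESeq2 also called 0. In the edgeR fit 3 of the 57 genes described here, and 3 of all 60 (5%), had an unadjusted p under 0.05. Among families 1 of 19 was called (5.26%): the TRAV9 family, with a difference of 1.45 ± 0.45 on the log2 scale (95% interval 0.56 to 2.34, adjusted p = 0.0298). Its ratio was 0.91 in CD8 and −0.53 in CD4 conventional cells, higher in expanded clonotypes of all 4 CD8 samples and lower in all 4 CD4 samples. The adjusted p was 0.0661 without replicate 1, 0.219 without replicate 3 and 0.0883 without replicate 4, and the call was lost in 8 of the 18 alternatives tried, with adjusted p from 0.00171 to 0.327. TRAV13-4-DV7, higher in expanded CD4 conventional clonotypes and at 0 in expanded CD8 ones, had an adjusted p of 0.144, and of 0.0108 with TMM scaling, within a range of 0.0108 to 0.729.

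How evenly the TRAV genes were used was measured by the probability that 2 clonotypes of a library share a TRAV gene, with TRAV5 genes included. It was 2.91% ± 0.08 in Treg and 2.79% ± 0.09 in CD4 conventional cells, higher in Treg in 3 of 4 libraries (p = 0.250, exact permutation test over 4 pairs, two-sided, for which 0.125 is the smallest p). In CD4 conventional cells it was 3.66%, 5.96%, 3.44% and 2.97% in expanded clonotypes, against 2.89%, 2.56%, 2.69% and 2.82% in single ones. In CD8 cells it was 3.57%, 6.64%, 5.88% and 4.65% in expanded clonotypes, against 3.01%, 3.59%, 2.97% and 3.92% in single ones. In both lineages expanded clonotypes shared a TRAV gene more often in 4 of 4 libraries, with the smallest p the design allows (p = 0.125, exact permutation test, two-sided). TRAV5 genes, outside those described here, weighed on this measure in CD4 conventional cells. Counted by family, TRAV5 held 101 of 550 expanded assignments there, and 736 of 7097 over expanded and single ones together. The measure was not computed without TRAV5 genes, so it does not speak for the genes described here alone. The mean difference was 1.27 ± 1.45 percentage points in CD4 conventional cells, and 0.557 without replicate 2. In CD8 cells it was 1.81 ± 1.35, with 0.902 when clonotypes were joined by TRB and 1 shared TRA and 4.50 with expanded set at 3 cells. The direction did not hold in every library under every alternative: with expanded set at 3 cells the CD4 conventional difference was positive in 2 of 4 libraries (p = 0.5, exact permutation test).

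**Figure D5:**
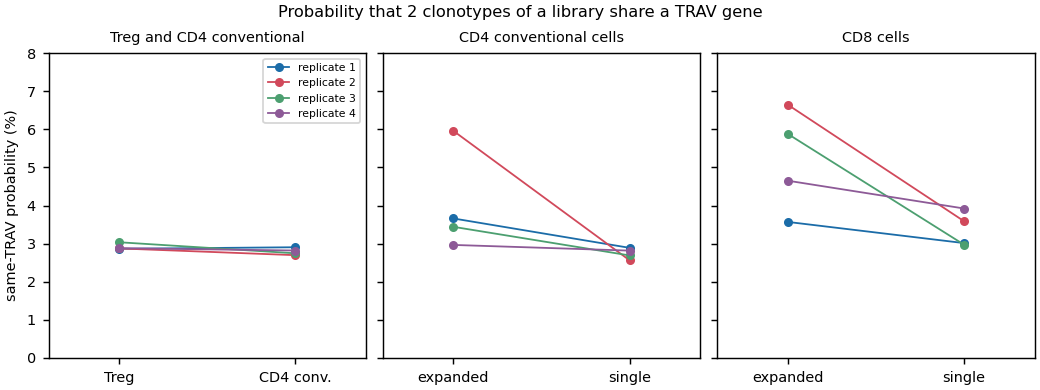
Probability (%) that 2 clonotypes of a library share a TRAV gene, in each of the 4 libraries. TRAV5 genes are included, and lines join the populations of a library. Expanded clonotypes lie above single ones in 4 of 4 libraries in CD4 conventional and in CD8 cells, and Treg lie between 2.86% and 3.04%.

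The position of the genes in the locus was compared as well. All 72 TRAV genes read were placed in gene order with the RefSeq annotation of GRCm38, a C57BL/6 genome, where the TRAV genes span chr14:52427967-53977678 and TRAJ segments follow; the NOD copy number may differ. The genes on the TRAJ side of the middle of that order made 64.1% ± 2.4 of Treg and 63.2% ± 1.0 of CD4 conventional assignments (p = 0.625, exact permutation test). It made 63.3% ± 2.1 of expanded and 63.2% ± 1.1 of single CD4 conventional assignments (p = 0.875, exact), and 67.3% ± 7.9 of expanded and 62.9% ± 1.5 of single CD8 assignments (p = 0.375, exact). The CD8 difference was positive in replicates 1 to 3 and negative in replicate 4. For genes with near-identical copies the side of the locus rests on the copy called. A UMI of that exact copy was found in 3.18% of cells with a TRAV6N-7 contig and 6.54% with a TRAV14D-1 contig.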

How the data were processed

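The authors deposited a 10x count matrix per library of mRNA and antibody UMI counts (Cell Ranger 4.0.0 per the file headers, mm10 and Seurat per the submitters' processing notes) and a contig table per receptor library. The labels and headers name no version for the contig assembly. Barcodes with at least 500 UMIs, 300 genes, at most 8% mitochondrial UMIs and 1 Cd3 UMI were kept. Receptors needed exactly 1 productive TRB and 1 or 2 productive TRA, which removes many doublets. No doublet caller was run. A clonotype in both Treg and CD4 conventional cells (8.43% to 14.4% of Treg clonotypes) went to the population with more of its cells, and 38 ties were left out.

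Counts of clonotypes per TRAV gene were tested with edgeR 4.0.16 (robust quasi-likelihood, total assignments as library size, no TMM, library as block) for genes with at least 20 clonotypes, with TRAV5 genes in the fit and p-values adjusted over all genes tested. edgeR bounds its p-value by that of a Poisson test, which covers counting error. The standard error was taken from this p-value and its t distribution. DESeq2 1.42.0 was an alternative. The procedure was tested on simulated data. The block comes from the design, since both populations are cells of the same library. The deviations of paired populations correlated by −0.26 to 0.08. Single values were compared by exact permutation of signs over 4 pairs. Intervals on shares are 95% Wilson intervals and cover counting error only. The lower bounds of a fold set a count of 0 to 3.

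Named genes were those past adjusted p 0.05, the 10 of smallest p in each fit, the 10 most used in CD4 and in CD8 cells, TRAV1, TRAV11, TRAV11D and the TRAV16 genes, and the 5 families of smallest p. No productive contig was called TRAV11D. Members and lists were chosen with earlier results of these data known.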

Additional observations from a re-analysis of the deposited data

Results flagged for a closer look

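The TRAV9 family was marked because the effect of expansion differed between lineages by a test of that difference: the log2 ratio of expanded over single clonotypes was higher in CD8 than in CD4 conventional cells by 1.45 (edgeR interaction term, adjusted p = 0.0298). The call was lost in 8 of 18 alternatives, among them leaving out replicate 1 (0.0661), replicate 3 (0.219) or replicate 4 (0.0883), within a range of 0.00171 to 0.327. The other marks are samples far from the 3 others of their group, 4 among 74 groups of 4 examined, where chance marks about 1 in 20. TRAV10N made 1.23% of CD4 conventional assignments in replicate 2, against 1.75% to 1.80% in the others. TRAV3-3 made 0.621% of expanded CD4 conventional assignments in replicate 4 and was at 0 in the others. The TRAV7 family made 13.1% of expanded CD4 conventional assignments in replicate 1, against 7.08% to 8.07% in the others. The probability that 2 Treg clonotypes share a TRAV gene was 3.04% in replicate 3, against 2.86% to 2.88% in the others. No cause was tested for any of them.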

How the results depend on the processing

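With single clonotypes of 1 cell, some are clones of which only 1 cell was sampled, and genes at under 20 clonotypes were not tested. In the comparison of Treg with CD4 conventional cells 0 genes were called under all 23 alternatives. For expansion in CD4 conventional cells the count was 1, and it became 3 with no replicate block (TRAV5-4, TRAV5D-4 and, lower in expanded clonotypes, TRAV7D-2) and 0 with DESeq2; leaving out 1 replicate gave 0 to 1, with 0 without replicate 3. For CD8 cells the count of 0 became 1 with TMM scaling (TRAV12D-2), 1 with filterByExpr, which kept fewer genes (TRAV16N), and 1 with expanded set at 3 cells (TRAV16N). For the difference between lineages 0 became 1 with TMM scaling (TRAV13-4-DV7) and 1 with families (TRAV9). The fit with no replicate block changed no other count of genes.

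The TRAJ-proximal share turned sign in 2 comparisons, none of them past a threshold. Treg minus CD4 conventional was −0.13 percentage points with 1 TRA chain only. Expanded minus single in CD4 conventional cells was −0.37 with 1 TRA chain only, −1.64 in cells with a CD62L antibody count under 5, −6.35 with expanded set at 3 cells and −0.84 with clonotypes joined by TRB and 1 shared TRA, an alternative chosen after seeing the data; leaving out 1 replicate gave −1.17 to 1.10. The probability that 2 clonotypes share a TRAV gene kept its mean direction under all alternatives, between 0.557 and 1.64 percentage points higher in expanded CD4 conventional clonotypes and between 0.902 and 4.50 in expanded CD8 ones. With joined clonotypes it was higher in 3 of 4 libraries in each lineage (exact permutation p = 0.250 in CD4 conventional and 0.375 in CD8 cells), in CD4 conventional cells without markers of other cells in 3 of 4, and in CD8 cells with 1 TRA chain only in 3 of 4.

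TMM scaling moved the median log2 ratio of all genes tested to −0.26 in Treg, −0.36 in CD4 conventional and −0.75 in CD8 cells, from −0.14, −0.11 and −0.22. Of 639 recomputations of the 35 log2 ratios described, 634 kept their direction. When each cell counted, Treg over CD4 conventional turned to −0.10 for TRAV16N, −0.081 for the TRAV16 family and 0.23 for TRAV10N. TRAV14-1 in Treg ranged from −0.14 (without replicate 1) to 0.96 with 1 replicate left out, and TRAV8N-2 to 0.46 in expanded CD4 conventional clonotypes when joined. The cause of these changes was not tested.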

Other observations

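Identical TRA CDR3 nucleotide sequences recurred between libraries more often for some genes, counted over all CD4 conventional and CD8 clonotypes, expanded and single together. Of 8626 distinct TRAV and TRA sequence combinations 180 (2.09%) were found in at least 2 libraries and 21 in at least 3. TRAV16N held 26 of these 180, out of 419 distinct sequences (6.21%), and 1 of the 3 found in all 4 libraries. TRAV11 held 4 out of 18 (22.2%) and also 1 of those found in all 4. TRAV12D-2 held 5 out of 293 (1.71%), and TRAV1 held 0 out of 73.

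The largest clone of all was a CD8 clone in replicate 3 with TRAV6N-7, TRAJ53 and TRBV16, of 143 cells, beside a clonotype of 86 cells with the same segments. The 143-cell clonotype also held a TRAV5-4 chain. In replicate 3, 25.5% of CD8 cells had 2 TRA chains, against 5.56% to 10.2% in the other libraries. Whether the 86 cells were the same clone with 1 chain unread was not tested. TRAV6N-7 made 5.14% ± 5.02 of expanded and 5.67% ± 0.17 of single CD8 assignments (SD, n = 4 libraries), so the size of these clones does not show in a count of clonotypes.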
